A study of Rattus norvegicus with 9 samples.

Results

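The complement and coagulation system was described in rat liver through 48 listed genes, chosen by name and not by their values: the complement components, lectins and proteases, the fibrinogen chains and clotting factors, their plasma inhibitors, and the activators and receptors that tissue cells supply. Of these, 39 were read by a probe set that names them alone, among 14377 genes read in that way, and they fall into 30 genes that hepatocytes make, 3 chains of C1q, 4 tissue activators and receptors (F3, Plau, Plaur and Thbd) and 2 genes with other main sources (Cfd and F8). Another 5 (C2, Cfb, Mbl2, Kng1 and Plat) were matched only by probe sets shared with other genes, and C5, F7, F11 and F13b were matched by none. The arrays came from male Sprague–Dawley rats whose age is not given in the sources used here. The vehicle group is the control group. The CCl4 group, which the study names the fibrosis group, received carbon tetrachloride, a liver toxin, in olive oil by intraperitoneal injection for 8 weeks. The CCl4+Rot group also received rottlerin, an activator of BK potassium channels, at 2.5 mg/kg by the same route from 2 weeks after the first CCl4 injection. Each group had 3 rats with 1 array per rat, and a piece of whole liver frozen after anaesthesia was used, so every value is a mixture over all liver cell types. Rottlerin without CCl4 was not analysed here.

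The liver makes most proteins of both cascades and secretes them into plasma as inactive precursors. Complement is started by C1q bound to antibody, by lectins bound to sugars or by slow turnover of C3, and all routes meet at the cleavage of C3 and end in a pore built from C5 to C9. Coagulation ends when thrombin cuts fibrinogen into fibrin, which plasmin dissolves. Serine protease inhibitors (serpins) restrain both cascades. C1q comes mostly from macrophages, tissue factor (F3) from cells around vessels and from activated macrophages, and thrombomodulin (Thbd) from endothelium.

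Promoter windows are shown first for 6 members, the 3 fibrinogen chains, C3, prothrombin (F2) and Plau, because the first 5 stand for the strongly expressed hepatocyte-made genes whose levels are the main result and Plau for a gene supplied by other cells. Each window holds the 250 bases before the transcription start, 5′ to 3′ on the gene's strand, as RefSeq gives them on the rat build GRCr8, and was available for 29 of the 39 members. Fga lies at chr2:170671919-170672168 on the plus strand, Fgb at chr2:170700876-170701125 on the minus strand, Fgg at chr2:170652833-170653082 on the plus strand, C3 at chr9:2201340-2201589 on the minus strand, F2 at chr3:98065247-98065496 on the minus strand and Plau at chr15:3511988-3512237 on the minus strand. Capitals mark matches, on either strand, to 5 strings of letters. GTTAAT stands for a half-site of the HNF1 factors. TTGCNNAA stands for a site of the C/EBP factors, and TGAGTCA for a site of the AP-1 factors. TATAAA is the core of the TATA box, and GGGCGG is the GC box. None of these strings contains another.
Fga: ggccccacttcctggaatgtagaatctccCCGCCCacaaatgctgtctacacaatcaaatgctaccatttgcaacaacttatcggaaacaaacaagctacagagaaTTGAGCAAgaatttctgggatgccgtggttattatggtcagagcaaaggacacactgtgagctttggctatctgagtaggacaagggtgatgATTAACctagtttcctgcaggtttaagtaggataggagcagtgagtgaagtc
Fgb: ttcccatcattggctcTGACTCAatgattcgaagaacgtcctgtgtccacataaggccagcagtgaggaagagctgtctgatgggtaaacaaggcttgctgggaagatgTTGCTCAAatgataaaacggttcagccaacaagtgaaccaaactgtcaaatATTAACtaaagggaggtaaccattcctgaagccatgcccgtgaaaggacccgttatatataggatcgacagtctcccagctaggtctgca
Fgg: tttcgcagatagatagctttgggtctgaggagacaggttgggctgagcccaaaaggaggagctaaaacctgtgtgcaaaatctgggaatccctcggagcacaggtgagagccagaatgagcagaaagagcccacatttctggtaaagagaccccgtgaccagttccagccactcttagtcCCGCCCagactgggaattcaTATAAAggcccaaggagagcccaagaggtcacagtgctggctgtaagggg
C3: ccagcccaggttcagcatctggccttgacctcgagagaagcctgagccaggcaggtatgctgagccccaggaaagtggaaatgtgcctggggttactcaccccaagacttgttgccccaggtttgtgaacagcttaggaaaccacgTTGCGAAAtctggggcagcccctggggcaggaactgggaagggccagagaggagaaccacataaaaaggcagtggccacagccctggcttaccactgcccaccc
F2: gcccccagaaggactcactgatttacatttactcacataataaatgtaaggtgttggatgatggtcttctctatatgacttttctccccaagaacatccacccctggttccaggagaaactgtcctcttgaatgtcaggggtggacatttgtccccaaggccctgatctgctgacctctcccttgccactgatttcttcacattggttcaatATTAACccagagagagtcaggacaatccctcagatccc
Plau: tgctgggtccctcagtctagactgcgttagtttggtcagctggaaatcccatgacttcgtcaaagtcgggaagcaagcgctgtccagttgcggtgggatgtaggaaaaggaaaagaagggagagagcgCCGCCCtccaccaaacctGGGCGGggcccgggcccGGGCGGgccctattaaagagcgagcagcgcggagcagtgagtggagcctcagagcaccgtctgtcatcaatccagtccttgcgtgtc

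HNF1 and C/EBP proteins are transcription factors of the hepatocyte. The HNF1 half-site was found in 8 of the 24 hepatocyte-made members with a window (33.3%: C4bpa, C4bpb, C8a, F2, Fga, Fgb, Plg and Proc), and in 6.45% of 33469 rat promoter windows of the same length. The C/EBP string was found in 11 of the 24 (45.8%), against 9.22% of all windows. The AP-1 string was found in 2 (F5 and Fgb, 8.33%) against 4.05%, the TATA box in 1 (Fgg, 4.17%) against 12.9%, and the GC box in 3 (Fga, Fgg and Pros1, 12.5%) against 30.5%. In the printed windows the first base of the half-site lies 52 bases before the start in Fga, 90 bases in Fgb and 38 bases in F2, and Plau holds 3 GC boxes. A match is a run of letters and was not tested as a binding site.

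Values are log2 signals as deposited, on which a difference of 1 is a doubling, each with a detection call of present, marginal or absent. All 10 hepatocyte markers were present on every array, as the label liver requires. The array labelled CCl4 replicate 3 stood apart: 12714 of its probe sets were called present against 15550 to 16849 on the other 8, its median log2 signal was 7.81 against 6.79 to 7.01, and its hepatocyte markers had a median deviation from the vehicle mean of -0.58, against -0.10 to 0.07. Values from the CCl4 group are therefore given with that array and, for most results, also without it. In limma, with p adjusted by the Benjamini-Hochberg method over 31042 probe sets, a call needed an adjusted p below 0.05 and at least a 1.5-fold difference. Both comparisons with CCl4 use the same 3 CCl4 arrays and both comparisons with vehicle the same 3 vehicle arrays, so they are not independent.

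With CCl4 the hepatocyte-made members stayed at high signal, and no member met the call in the comparison with vehicle. All 30 were called present on all 9 arrays. Their mean log2 signal was 13.87, 13.88 and 13.92 on the vehicle arrays, 13.87, 13.75 and 13.48 on the CCl4 arrays, and 13.84, 13.81 and 13.82 on the CCl4+Rot arrays. The median log2 change with CCl4 was -0.21, with 25 lower and 5 higher (38.8% and 61.2% of all genes) and a range from -0.65 for C8g to 0.08 for C4bpb. Over all genes the median log2 change was 0.13, and over the 7058 genes present on all 9 arrays it was -0.01, with 3622 lower and 3436 higher. Without CCl4 replicate 3 the members' median was -0.08, with 21 lower and 9 higher, and it was -0.03 with 18 lower after quantile normalization and -0.57 with all 30 lower after each array was centred on its median, which moved the median of all genes to 0.01 and -0.23. That array held the lowest of the 9 signals for 24 of the 30 members and for 10 of the 10 hepatocyte markers. Fewer hepatocytes and less RNA per hepatocyte cannot be told apart in whole liver. Whether the low values of CCl4 replicate 3 come from its tissue, its array or the scaling was not tested.

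limma called 0 of the 39 members with CCl4, where it called 0% of all genes, and 4 members had an unadjusted p below 0.05 (C8g, F12, Thbd and Plaur), against 13.5% of genes. For 11 members the groups did not overlap, 2 higher and 9 lower with CCl4, against 21% of all genes (12.5% higher and 8.53% lower). Of the 7058 genes present on all 9 arrays, as every hepatocyte-made member was, 856 were higher and 1001 lower without overlap. The 2 higher members were Thbd and Plaur, and Plaur was called present on no array. The 9 lower members were all hepatocyte-made: C8g, Masp2, F2, F5, F10, F12, Plg, Pros1 and Serpind1. Their share of the 39 was not tested. At an unadjusted p and 1.5-fold, the methods' t-test called 3 of the 39 with CCl4 against 6.3% of all genes, 0 between CCl4+Rot and CCl4 against 2.18%, and 2 between CCl4+Rot and vehicle against 8.05%.

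**Figure D1:**
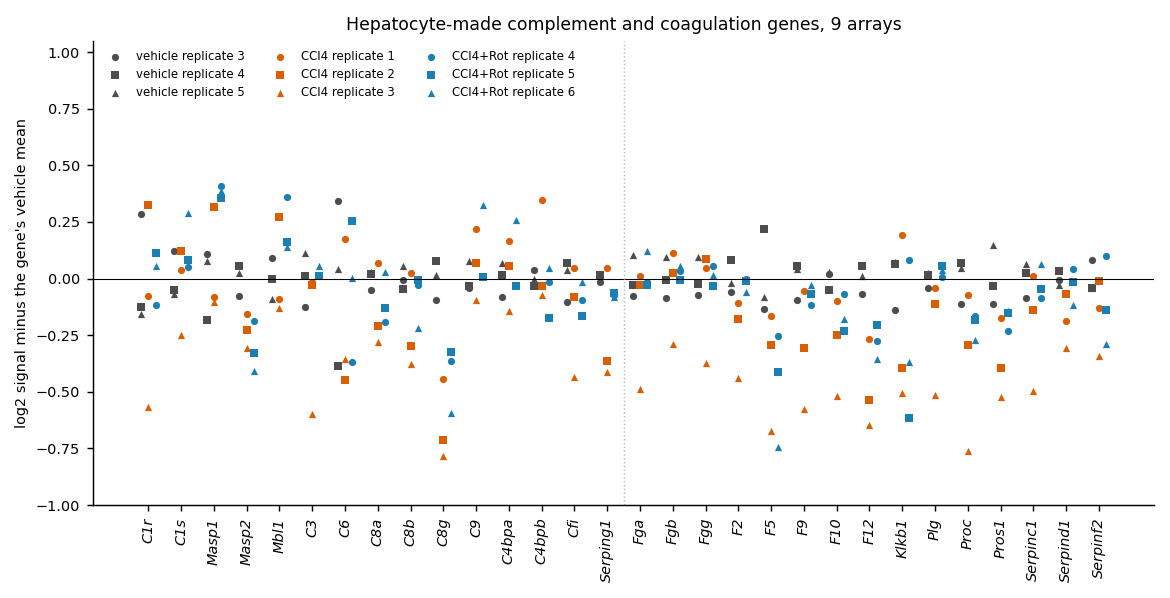
Log2 signal of the 30 hepatocyte-made members on each of the 9 arrays, with the gene's vehicle mean taken as 0. Colors mark groups and shapes mark arrays; complement genes with Serping1 lie left of the dotted line. The orange triangles, CCl4 replicate 3, are the lowest point for 24 of the 30 genes, and C8g and F12 are low on all 3 CCl4 arrays.

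The first components of complement differed little. C1r and C1s, the proteases carried by C1q, had log2 changes with CCl4 of -0.10 (SE 0.256) and -0.03 (SE 0.171), which turned to 0.13 and 0.08 without CCl4 replicate 3. The lectin Mbl1, which binds microbial sugars, and the lectin-pathway protease Masp1 differed by 0.02 and 0.04, and by 0.09 and 0.12 without that array. Masp2, which cleaves C4 and C2 in that pathway, was 12.50, 12.63 and 12.60 with vehicle, 12.42, 12.35 and 12.27 with CCl4 and 12.39, 12.25 and 12.17 with CCl4+Rot. Both treated groups lay below all vehicle arrays, but the log2 changes of -0.23 and -0.31 (SE 0.146) had adjusted p values of 0.543 and 0.664 in limma, and the change with CCl4 was -0.20 without CCl4 replicate 3. The other 2 Masp2 probe sets, present on all 9 arrays, gave 0.07 and 0.14 and -0.20 and 0.33 for the same comparisons, so the direction for Masp2 depends on the probe set.

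C3, the point at which the complement routes meet, was 15.14, 15.28 and 15.38 with vehicle, 15.25, 15.24 and 14.67 with CCl4 and 15.28, 15.28 and 15.32 with CCl4+Rot. Its low value is that of CCl4 replicate 3, and its log2 change with CCl4 was -0.21 with that array and -0.02 without it. C3 lies close to the highest signal on any array, 15.62, so a higher level could be understated. The regulators C4bpa and C4bpb, chains of the C4b-binding protein, differed by 0.03 and 0.08 (0.11 and 0.16 without that array), and the C3b-cleaving protease Cfi by -0.16 (-0.02 without it).

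Among the pore genes read by a probe set of their own, C8g had the largest difference with CCl4, and the means of C6, C8a, C8b and C9 lay within 0.22 of the vehicle mean. C8g encodes the gamma chain of C8, a lipocalin bound to the alpha chain. Its log2 signal was 14.16, 14.33 and 14.27 with vehicle, 13.81, 13.54 and 13.47 with CCl4 and 13.89, 13.93 and 13.66 with CCl4+Rot. All 6 arrays from CCl4-treated rats lay below all 3 vehicle arrays. The log2 change with CCl4 was -0.65 (SE 0.168, n = 3 arrays per group), a 1.57-fold lower signal, with an adjusted p of 0.249 in limma, and it was -0.58 without CCl4 replicate 3. A fit in which the spread follows the signal, with robust estimation, called it (adjusted p = 0.0363 in limma, with 1.62% of all genes called), and without CCl4 replicate 3 its adjusted p in that fit was 0.0472, but the change of -0.58 lay just short of the 1.5-fold needed for a call. Its partners C8a and C8b had log2 changes of -0.14 and -0.22, and C9, which completes the pore, 0.06; without that array these were -0.07, -0.14 and 0.14.

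The 12 hepatocyte-made coagulation genes were all lower with CCl4 (38.8% of all genes were lower), by a median log2 change of -0.27 (range -0.48 to -0.05). Without CCl4 replicate 3 the median was -0.16 with 10 lower and 2 higher. It was -0.12 with 9 lower and 3 higher after quantile normalization, and -0.62 with all 12 lower after median centring. None met the call. The 3 fibrinogen chains, the substrate of thrombin, were near the top of the scale on every array. Fgb was 15.21, 15.29 and 15.39 with vehicle, 15.41, 15.32 and 15.01 with CCl4 and 15.33, 15.29 and 15.35 with CCl4+Rot. Fga, Fgb and Fgg differed by -0.17, -0.05 and -0.08 with CCl4 (SE 0.164 to 0.185), and by 0.19, 0.08 and 0.10 between CCl4+Rot and CCl4. Without CCl4 replicate 3 these differences were -0.01, 0.06 and 0.06, and 0.03, -0.04 and -0.05, so Fgb and Fgg changed sign in both comparisons. A second Fga probe set went the other way, at 13.52, 12.75 and 13.30 with vehicle and 13.60, 13.89 and 13.92 with CCl4, a log2 change of 0.61 (SE 0.229, adjusted p = 0.354 in limma; 0.55 without that array), so the direction for Fga depends on the probe set.

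Factor XII (F12), which starts the contact route of clotting, had the lowest change of this set. Its log2 signal was 13.55, 13.67 and 13.63 with vehicle, 13.35, 13.08 and 12.97 with CCl4 and 13.34, 13.41 and 13.26 with CCl4+Rot. All arrays from CCl4-treated rats lay below the vehicle arrays. The log2 change was -0.48 (SE 0.160, adjusted p = 0.311 in limma), and -0.40 without CCl4 replicate 3. Its partner Klkb1, plasma prekallikrein, differed by -0.24 (SE 0.259), and by -0.11 without that array.

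Factor V (F5), the cofactor of factor Xa, was 12.08, 12.43 and 12.13 with vehicle, 12.05, 11.92 and 11.54 with CCl4 and 11.96, 11.80 and 11.47 with CCl4+Rot, with log2 changes from vehicle of -0.38 and -0.47 (SE 0.218, adjusted p = 0.509 and 0.649 in limma), the first being -0.23 without CCl4 replicate 3. The vitamin K-dependent factors F2, F9 and F10 changed by -0.24, -0.31 and -0.29 with CCl4, and the vitamin K-dependent anticoagulants Proc and Pros1 by -0.38 and -0.36. Without CCl4 replicate 3 these 5 values lay between -0.28 and -0.14. Plasminogen (Plg), the precursor of plasmin, changed by -0.23, and by -0.08 without that array.

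The 4 hepatocyte-made serpins were all lower with CCl4, by a median log2 change of -0.19 (range -0.25 to -0.16) and by -0.10 without CCl4 replicate 3. The median was -0.02 after quantile normalization and -0.55 after median centring. These serpins are Serping1, which inhibits the C1 proteases and kallikrein, Serpinc1 (antithrombin), Serpind1 (heparin cofactor II) and Serpinf2 (the plasmin inhibitor). Serpind1 alone had groups that did not overlap, at 14.06, 14.10 and 14.04 with vehicle and 13.88, 14.00 and 13.76 with CCl4. Its log2 change of -0.18 (-0.12 without that array) had an adjusted p of 0.630 in limma.

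**Figure D2:**
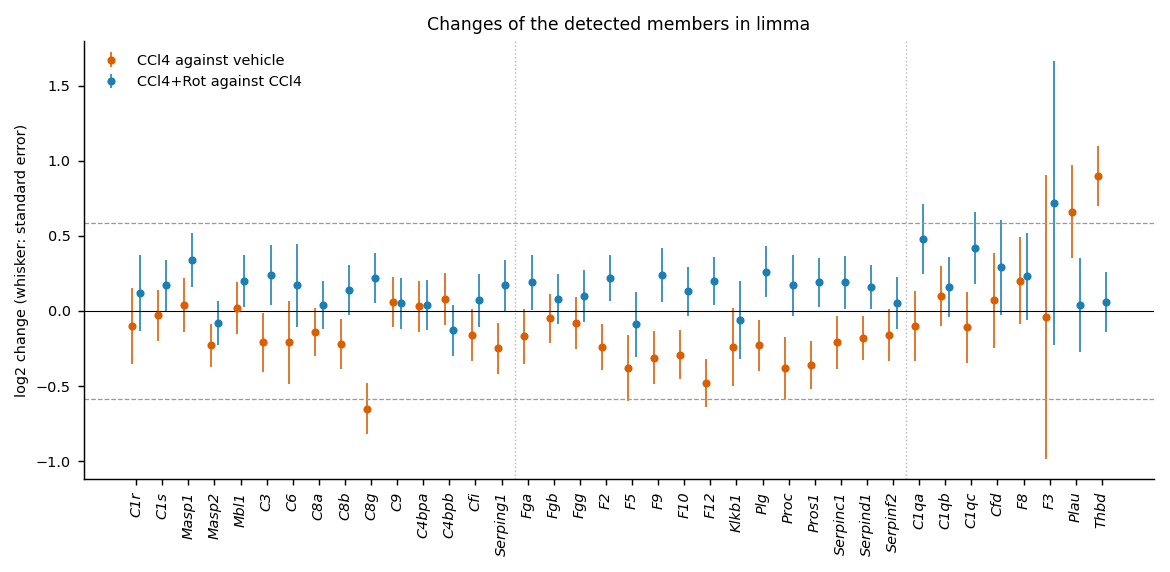
Log2 change and its standard error in limma for the 38 members detected on at least 1 array, with CCl4 against vehicle in orange and CCl4+Rot against CCl4 in blue; dashed lines mark 1.5-fold. Left to right, dotted lines part the complement genes and Serping1, the coagulation genes and their serpins, and the members from other cells. C8g at -0.65, Plau at 0.66 and Thbd at 0.90 lie past 1.5-fold with CCl4, and F3 has the widest error.

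With rottlerin added to CCl4, no member met the call against CCl4, where 0% of all genes did, and 0 members had an unadjusted p below 0.05, against 5.5% of genes; the fit with robust estimation called 0 members and 0.00696% of genes. The median log2 difference of the hepatocyte-made members was 0.16, with 26 higher and 4 lower (43.8% and 56.2% of all genes), but 0.04 with 17 higher without CCl4 replicate 3, and 0.04 with 18 higher after quantile normalization. After median centring it was 0.41 with all 30 higher, while the median of all genes moved from -0.05 to 0.20. The hepatocyte markers had a median difference of 0.20, and 0.01 without that array. The groups did not overlap for 4 members, all higher with CCl4+Rot (C3, Masp1, F2 and Plg), against 11.2% of all genes (5.57% higher and 5.6% lower). Of the 7058 genes present on all 9 arrays, 4004 were higher, 574 of them without overlap, and 3054 lower, 284 without overlap. Masp1 was 11.18, 11.58 and 11.16 with CCl4 and 11.67, 11.62 and 11.65 with CCl4+Rot, after 11.37, 11.08 and 11.34 with vehicle. All 3 CCl4+Rot arrays were above the other 6, by a log2 difference of 0.34 from CCl4 and 0.38 from vehicle (SE 0.178, adjusted p = 0.765 and 0.647 in limma), and the difference from CCl4 was 0.27 without CCl4 replicate 3. A second Masp1 probe set gave -0.19 and 0.17. Without that array C3, F2 and Plg differed between CCl4+Rot and CCl4 by 0.05, 0.12 and 0.11.

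Between CCl4+Rot and vehicle livers the hepatocyte-made members differed little at the median, but 8 were lower and 2 higher without overlap. The median log2 difference was -0.04, with 19 lower and 11 higher (46.2% and 53.8% of all genes) and a range from -0.47 for F5 to 0.38 for Masp1, and it was -0.15 with 26 lower after median centring. limma called 0 members, where it called 0.0209% of all genes, and 3 members had an unadjusted p below 0.05 (C8g, Thbd and Plaur), against 9.79% of genes. For 13 members the groups did not overlap, against 24.7% of all genes. Higher were 5 (Masp1, Mbl1, F8, Plaur and Thbd), against 15.2% of genes, with Plaur called present on no array. Lower were 8, against 9.47%, all hepatocyte-made: C8g, Masp2, F5, F10, F12, Proc, Pros1 and Serping1. Of the 7058 genes present on all 9 arrays, 1189 were higher and 937 lower without overlap. The 12 hepatocyte-made coagulation genes had a median log2 difference of -0.11, with 8 lower and 4 higher. C8g was lower by a log2 difference of -0.43 (SE 0.168, adjusted p = 0.551 in limma), and F12 by -0.28 (SE 0.160). The spread of the hepatocyte-made members within a group, as the median SD over genes, was 0.0837 with vehicle, 0.225 with CCl4 and 0.0835 with CCl4+Rot (n = 3 each). Over the 7058 genes present on all 9 arrays it was 0.136, 0.25 and 0.147, and over all genes 0.229, 0.414 and 0.228. The wider spread with CCl4 is thus not particular to these members, and it includes CCl4 replicate 3.

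The C1q chains did not separate the groups. C1qa was 12.40, 11.98 and 11.87 with vehicle, 11.92, 12.35 and 11.68 with CCl4 and 12.45, 12.32 and 12.61 with CCl4+Rot. C1qb was 11.51, 11.10 and 11.22, then 11.14, 11.69 and 11.31, then 11.64, 11.44 and 11.54. C1qc was 11.70, 11.35 and 11.21, then 11.24, 11.72 and 10.96, then 11.79, 11.62 and 11.76. All 3 chains had their highest vehicle value in replicate 3 and their highest CCl4 value in replicate 2, and the groups overlapped for each chain in every comparison.

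The log2 changes of C1qa, C1qb and C1qc with CCl4 were -0.10, 0.10 and -0.11, and without CCl4 replicate 3 all 3 were positive with a median of 0.07, while median centring made all 3 negative. Between CCl4+Rot and CCl4 they were 0.48, 0.16 and 0.42 (SE 0.202 to 0.239, smallest adjusted p = 0.758 in limma), with a median of 0.24 without that array. The 8 of 12 macrophage markers that could be read were present on every array. Their mean log2 signal was 10.76 to 11.21 with vehicle, 11.14 to 11.43 with CCl4 and 11.41 to 11.62 with CCl4+Rot. The mean of the C1q chains was 11.43 to 11.87, 11.32 to 11.92 and 11.79 to 11.97. Of the 8 markers, 5 were higher and 3 lower with CCl4, and all 8 were higher with CCl4+Rot than with CCl4. Clec4f, a marker of Kupffer cells and 1 of the 3 lower, was 12.50 to 12.85 with vehicle, 12.07 to 12.56 with CCl4 and 12.69 to 12.88 with CCl4+Rot. Cd5l, another of the 8, rose instead, with means of 12.42, 12.63 and 13.02. The part of macrophage number in the C1q values was not tested.

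**Figure D3:**
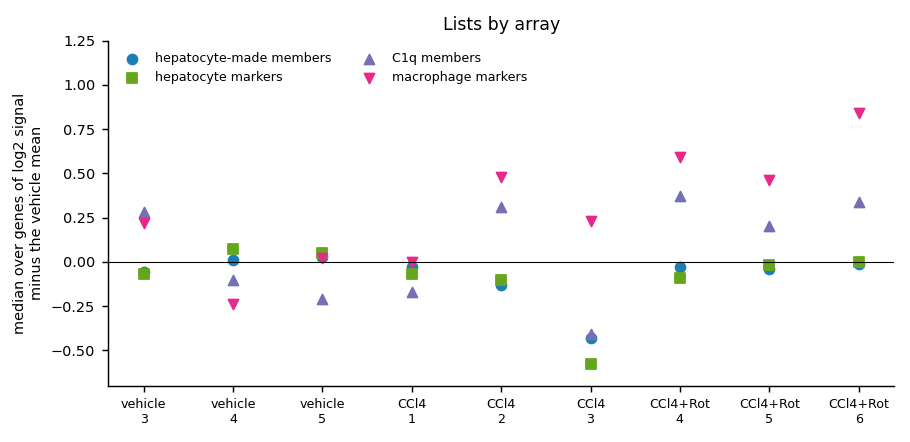
For each of the 9 arrays, the median over genes of the log2 signal minus the gene's vehicle mean, for the hepatocyte-made members (30 genes), the hepatocyte markers (10), the C1q chains (3) and the macrophage markers (8). The hepatocyte-made members and hepatocyte markers reach -0.43 and -0.58 on CCl4 replicate 3 and stay within -0.13 to 0.07 on the other arrays.

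Among the genes supplied by other cells, thrombomodulin and urokinase had higher signals on most arrays from CCl4-treated rats, with no call in limma. Thbd, the endothelial receptor that turns thrombin toward activating protein C, was 7.69, 7.81 and 7.95 with vehicle, 8.49, 9.02 and 8.65 with CCl4 and 8.86, 8.55 and 8.93 with CCl4+Rot, and was called absent on CCl4 replicate 3. All 6 arrays from CCl4-treated rats lay above the vehicle arrays. The log2 change was 0.90 with CCl4 (SE 0.201, 1.87-fold, adjusted p = 0.221 in limma), 0.94 without CCl4 replicate 3, and 0.96 between CCl4+Rot and vehicle (adjusted p = 0.219). The robust fit called the latter (adjusted p = 0.0449 in limma, with 1.17% of all genes called), and CCl4+Rot and CCl4 differed by 0.06. A second Thbd probe set was present on no vehicle array, on 1 CCl4 array and on all 3 CCl4+Rot arrays. It was 2.30-fold higher with CCl4+Rot than with vehicle (log2 SE 0.55, adjusted p = 0.639 in limma), a value that rests on vehicle signals called absent. The remaining one was called present on no array, and the mean of the 3 sets was lower with CCl4+Rot than with vehicle (-0.19). The 7 endothelial markers that could be read had a median log2 change of -0.14 with CCl4 and 0.06 between CCl4+Rot and vehicle.

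Urokinase (Plau) converts plasminogen to plasmin. It was 9.39, 8.57 and 8.79 with vehicle, 9.40, 10.08 and 9.25 with CCl4 and 9.84, 9.32 and 9.69 with CCl4+Rot. Vehicle replicate 3 was as high as the lower arrays of the other groups, so the groups overlapped. The log2 changes from vehicle were 0.66 and 0.70 (SE 0.310, adjusted p = 0.437 and 0.616 in limma), the first being 0.83 without CCl4 replicate 3, and a second probe set gave 0.77 and 0.53, with 8.05, 7.49 and 7.99 with vehicle and 8.13, 9.06 and 8.65 with CCl4. Tissue plasminogen activator (Plat), on a probe set that also names LOC100910418, was 8.48, 7.46 and 7.30, then 8.30, 9.22 and 8.29, then 8.68, 8.75 and 8.93, a log2 change of 0.86 with CCl4 and 1.04 between CCl4+Rot and vehicle (SE 0.378, adjusted p = 0.415 and 0.505 in limma), the first being 1.01 without that array. The urokinase receptor Plaur was called present on no array, at 3.74, 5.89 and 3.77 with vehicle, 6.95, 6.98 and 8.41 with CCl4 and 6.82, 6.84 and 7.04 with CCl4+Rot, so no fold is given. A second Plaur probe set, also called present on no array, went the other way, at 5.24, 5.86 and 5.73, then 4.51, 2.93 and 4.94, then 5.62, 3.20 and 4.97.

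Tissue factor (F3), the starter of clotting outside vessels, was 6.15, 6.26 and 7.07 with vehicle, 7.67, 7.69 and 4.01 with CCl4 and 7.09, 6.73 and 7.70 with CCl4+Rot, and was absent on CCl4 replicate 3. Its log2 change with CCl4 was -0.04 (SE 0.947) with that array and 1.19 without it. Factor VIII (F8), made mainly by endothelium, was 8.13, 7.86 and 7.97 with vehicle, 7.63, 8.15 and 8.77 with CCl4 and 8.49, 8.21 and 8.55 with CCl4+Rot, and differed by 0.43 between CCl4+Rot and vehicle (SE 0.290, adjusted p = 0.814 in limma) with groups that did not overlap. Cfd, the protease that activates factor B and is best known from fat, was 9.72, 8.97 and 9.35, then 9.46, 9.97 and 8.82, then 9.78, 9.66 and 9.67, and overlapped in every comparison.

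**Figure D4:**
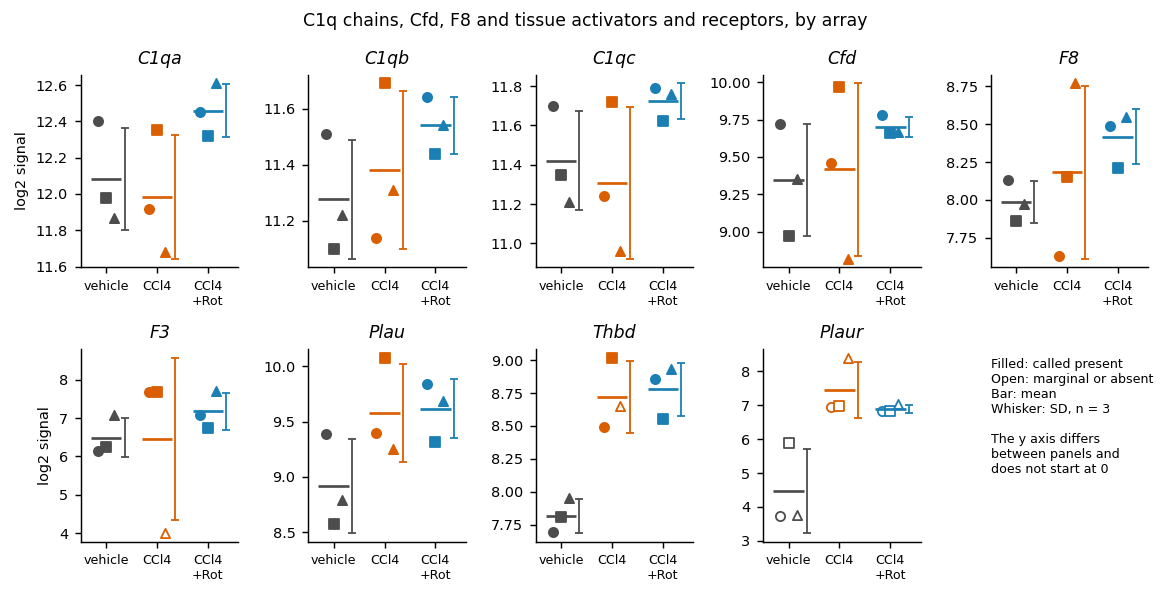
Log2 signal of the C1q chains, Cfd, F8, F3, Plau, Thbd and Plaur on each array, with group mean (bar) and SD (whisker, n = 3); open symbols were not called present. Thbd is the panel in which both CCl4-treated groups lie above vehicle among detected genes, and F3 on CCl4 replicate 3 is the low open triangle at 4.01.

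Of the members read only by shared probe sets, C2 and Cfb are named together on 4 sets, since the array annotation does not part the neighboring genes. The strongest was 14.00, 14.14 and 14.16 with vehicle, 14.28, 14.13 and 13.72 with CCl4 and 14.20, 14.06 and 14.21 with CCl4+Rot, and the other 3 had log2 changes of 0.16 to 0.22 with CCl4 and 0.32 to 0.45 between CCl4+Rot and vehicle. The first set differed by -0.06 with CCl4, and by 0.11 without CCl4 replicate 3. Mbl2, named with LOC100911854, differed by -0.07 and -0.11 on its 2 sets, and by 0.06 and 0.02 without that array. The kininogen set, which names Kng1, Kng1l1 and Kng2, differed by 0.29 with CCl4 (SE 0.189; 0.44 without that array). A set that names Kng2 alone went the other way, by -0.38 with groups that did not overlap (SE 0.186, adjusted p = 0.455 in limma; -0.29 without that array).

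Of 60 other genes of the system that were listed, 45 were read by 1 symbol and limma called 0 in each of the 3 comparisons. With CCl4, 9 were at least 1.5-fold higher with groups that did not overlap, and 0 were lower in that way, against 8.49% and 2.43% of all genes. They are the complement receptor C5ar1 and the integrin chains Itgax and Itgb2, the collectin Colec12, the complement regulator Cd55, the tissue factor pathway inhibitor Tfpi, Serpinb2, and the plasminogen-binding pair Anxa2 and S100a10. Serpinb2 was present only on CCl4 replicate 1. Its mean CCl4 signal, which takes in arrays where it was called absent, was 4.6-fold above a vehicle floor. That floor is the mean, over the vehicle arrays, of each array's lowest log2 signal called present. Between CCl4+Rot and CCl4, Serpinb2 was 3.73-fold lower when each CCl4+Rot array was taken at no less than its lowest present signal, with groups that overlapped. Neither fold is a strict minimum. Itgax and Cd55 were not called present on CCl4 replicate 3. Cd55 was 5.70, 5.19 and 6.10 with vehicle, 6.17, 6.67 and 7.25 with CCl4 and 5.73, 5.52 and 4.93 with CCl4+Rot. CCl4 was the highest group, by 1.03 over vehicle (SE 0.367, adjusted p = 0.337 in limma). CCl4+Rot lay below it by a log2 difference of -1.30 with no overlap (adjusted p = 0.678 in limma). Without CCl4 replicate 3 the values were 0.76 and -1.03. Between CCl4+Rot and CCl4, Cd55 was the 1 gene of the 45 at least 1.5-fold lower without overlap, and 3 were higher in that way. Over all 14377 genes, 492 were lower and 231 higher so. The 3 were Itgam, called present on no array, and Vwf and Serpina5, called present on CCl4+Rot arrays only.

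Anxa2 was 9.07, 9.13 and 9.10 with vehicle, 9.98, 10.74 and 10.64 with CCl4 and 10.09, 9.96 and 10.64 with CCl4+Rot. S100a10, its binding partner, was 9.81, 9.61 and 9.39, then 10.45, 11.11 and 10.84, then 10.81, 10.58 and 10.71. Both were above every vehicle array in both treated groups. Their log2 changes with CCl4 were 1.36 (SE 0.266, adjusted p = 0.202 in limma) and 1.19 (SE 0.216, adjusted p = 0.186), 1.26 and 1.18 without CCl4 replicate 3, and the robust fit called both (adjusted p = 0.0129 and 0.00872 in limma).

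C5ar1, the receptor of the anaphylatoxin C5a, was 8.41, 7.98 and 8.43 with vehicle, 8.84, 9.20 and 9.42 with CCl4 and 9.29, 9.01 and 8.94 with CCl4+Rot, log2 changes of 0.88 and 0.81 from vehicle (SE 0.224, adjusted p = 0.243 and 0.357 in limma). Colec12, a scavenger collectin, was 8.40, 7.55 and 7.82, then 8.62, 9.69 and 9.13, then 9.42, 9.87 and 9.89, and differed by 1.22 with CCl4 and by 1.81 between CCl4+Rot and vehicle (SE 0.336, adjusted p = 0.252 and 0.191). Tfpi was 9.06, 8.85 and 8.92, then 9.18, 10.47 and 9.69, then 9.58, 9.73 and 9.83, and differed by 0.84 and 0.77 (SE 0.311). Without CCl4 replicate 3 the changes of C5ar1, Colec12 and Tfpi with CCl4 were 0.75, 1.23 and 0.88. The robust fit called Colec12 and the thrombin receptor F2r between CCl4+Rot and vehicle (adjusted p = 0.0103 and 0.0363 in limma), together with Anxa2 and S100a10. The 8 macrophage markers had a median log2 change of 0.22 with CCl4 and 0.66 between CCl4+Rot and vehicle. For the 4 neutrophil markers that could be read it was 0.59 and 1.44 with all 4 higher in both, and for the 10 myofibroblast markers 1.07 and 1.54. With CCl4, 2 of the 4 neutrophil markers were higher after quantile normalization (median 0.30) and after median centring (0.24), and 3 without CCl4 replicate 3. Between CCl4+Rot and vehicle all 4 stayed higher in these settings. Csf3r, 1 of the 4, was called present on no CCl4 array. The part of these cell types in these genes was not tested.

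A pair of probe sets that names the pore component C7 together with the tubulin gene Tubb4b separated all 3 groups, and was singled out after its values were seen. The stronger set was 9.89, 9.80 and 10.32 with vehicle, 11.83, 12.82 and 11.26 with CCl4 and 12.83, 12.91 and 13.17 with CCl4+Rot. The order was vehicle below CCl4 below CCl4+Rot with no overlap. The log2 differences were 1.97 with CCl4, 1.00 between CCl4+Rot and CCl4 and 2.97 between CCl4+Rot and vehicle (SE 0.382, adjusted p = 0.200, 0.747 and 0.105 in limma), and the second set gave 2.01, 1.15 and 3.16. Without CCl4 replicate 3 the first and second differences of the stronger set were 2.32 and 0.64. The robust fit called the first and the last of these for both sets (adjusted p = 0.0162 and 0.0026 for the stronger set in limma). Which of the named genes carries the signal was not tested. A2m, a broad protease inhibitor of plasma, on a set that also names LOC100911545, was 9.08, 8.76 and 9.72 with vehicle, 10.40, 11.65 and 11.86 with CCl4 and 10.66, 10.65 and 11.51 with CCl4+Rot, log2 changes of 2.12 and 1.76 from vehicle (SE 0.461, adjusted p = 0.218 and 0.324 in limma), the first being 1.84 without CCl4 replicate 3.

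**Figure D5:**
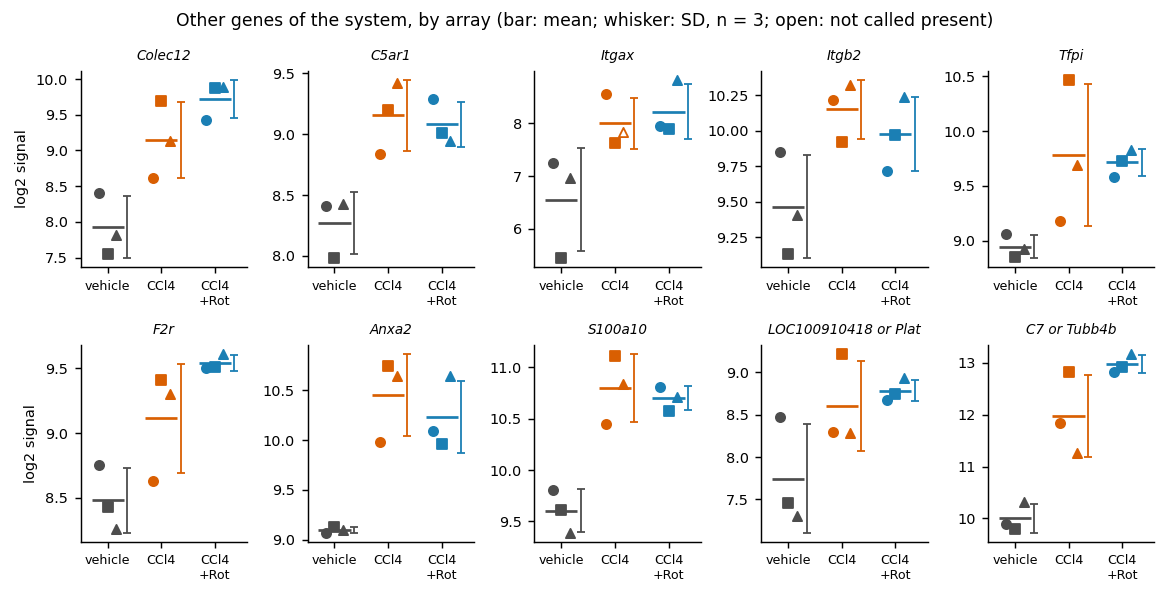
Log2 signal on each array of other genes of the system and of the shared probe sets naming Plat and C7, with group mean (bar) and SD (whisker, n = 3); open symbols were not called present. Anxa2 and S100a10 lie above vehicle on all 6 arrays from CCl4-treated rats, and the set naming C7 or Tubb4b runs from 9.80 to 13.17 with no overlap between the 3 groups.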

How the data were processed

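Gene expression was measured in liver of 9 rats, 3 per group, on an Affymetrix rat expression array that reads genes near the 3' end. The authors deposited 1 table of 31099 probe sets giving the log2 signal and the detection call of each array; per the submitters' processing notes MAS5 and affy were used, and versions and the genome build are not given in the sources used here. The antilogs had a trimmed mean of 500 on every array with 2% trimmed at each end, so the deposited values had been scaled per array to 1 mean, which leaves their distributions unequal. The number of arrays limits the precision. The deposited log2 values were used unchanged, and 57 control probe sets were left out.

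The 31042 probe sets were fitted in limma 3.58.1 (R 4.3.3, statmod 1.5.0) with 3 group means over all arrays, with Benjamini-Hochberg adjustment over the whole table. A gene was read by the probe set of highest mean signal among those naming it alone. Calls combined adjusted p below 0.05 with a difference of 1.5-fold or more. A gene present on no array of either group was given no fold, and one present in 1 group only a bound. The bound takes group means over all arrays, including those called absent, so it is approximate. With 3 arrays against 3, an exact permutation test cannot give a two-sided p below 0.1. No batch is named in the labels. The fit was tested on simulated data.

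Array values were given for members past 1.5-fold with groups that do not overlap, for the C1q chains, tissue activators, Cfd and F8, and for others where a result is described. Up to 10 other genes of the system past 1.5-fold without overlap with CCl4 were named, and other named genes were chosen after their values were seen. The members and lists were chosen with earlier results of these data known. Lists are described by counts and medians without a test. Alternatives were quantile normalization, median centring, filters on signal and detection, 2-group fits, a robust spread, the number as a block, array weights, other choices of probe set, no fold threshold, an unpaired Student t-test and leaving out each array. The robust fit without CCl4 replicate 3 was added after seeing the data. The numbers in the labels do not pair the samples: only 3 cross-group pairs share a number, and the correlations of their deviations were -0.090, -0.005 and -0.013. Promoter windows came from RefSeq (GRCr8).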

Additional observations from a re-analysis of the deposited data

How the results depend on the processing

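limma called 0 members and 0 other genes of the system in every comparison under each alternative not named here, including each left-out array (0 to 0), array weights and the number as a replicate block (0 calls; log2 change of C8g -0.65 with CCl4, of Thbd 0.90 and 0.97); the block changed no call. The robust fit called 2 members with CCl4 (C8g and Plaur, the latter present on no array) and 1 between CCl4+Rot and vehicle. It called 2 and 4 other genes in these comparisons, where it called 1.62% and 1.17% of all genes. Without CCl4 replicate 3 the robust fit called 0 (C8g lay short of 1.5-fold) and 1 members and again 2 and 4 other genes. The shares of all genes are not given for that fit or for the detection filter below. At an unadjusted p and 1.5-fold, the Student t-test called 3, 0 and 2 members and 6, 2 and 9 other genes, against 6.3%, 2.18% and 8.05% of all genes. The order is CCl4 against vehicle, CCl4+Rot against CCl4 and CCl4+Rot against vehicle. After Benjamini-Hochberg the t-test called 0 members. Keeping probe sets present on at least 3 arrays called 1 other gene with CCl4. The median log2 change with CCl4 moved with the scaling: for the hepatocyte-made members to -0.03 with quantile normalization and -0.57 with median centring, for C1q to -0.46 and for the 4 tissue genes, from 0.78, to 0.42 with centring and 0.49 with the mean of all probe sets of a gene. For the hepatocyte-made members, centring gave 0.41 between CCl4+Rot and CCl4 and -0.15 between CCl4+Rot and vehicle, where quantile normalization gave 0.00. Leaving out single arrays, the medians ranged with CCl4 from -0.29 to -0.08 (hepatocyte-made), -0.29 to 0.07 (C1q) and 0.58 to 1.06 (tissue), between CCl4+Rot and CCl4 from 0.04 to 0.21, 0.24 to 0.62 and -0.09 to 0.25, and between CCl4+Rot and vehicle from -0.06 to -0.04, 0.24 to 0.45 and 0.76 to 1.00. The number of members without overlap ranged from 11 to 20, 5 to 14 and 13 to 22, where fewer arrays make overlap rarer, and median centring gave 7 and 2 in the first and second comparison. The shares of all genes under these settings are not given here, so these counts show nothing particular to the members.

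Direction was unsettled for several genes. With CCl4, C1qa was 0.14 and C1qc 0.16 with array weights and 0.05 and 0.07 in the robust fit without CCl4 replicate 3; C1qb was -0.25 with centring; F3 was 0.97 with array weights and 1.19 in that robust fit; Cfd was -0.02 with quantile normalization and -0.29 with centring; F8 was -0.16 with centring, -0.10 in that robust fit and -0.28 with the mean of its probe sets. Between CCl4+Rot and CCl4, array weights gave C1qb -0.02, F3 -0.34, Plau -0.30, Thbd -0.14 and Cfd -0.08, the robust fit without CCl4 replicate 3 gave F3 -0.51, Plau -0.12 and Cfd -0.01, and the mean of probe sets gave Plau -0.10, Thbd -0.45 and F8 -0.48; between CCl4+Rot and vehicle it gave Thbd -0.19 and F8 -0.76. Leaving out 1 array, the log2 changes with CCl4 ranged from -0.29 to 0.05 for C1qa, -0.05 to 0.22 for C1qb, -0.32 to 0.07 for C1qc, -0.65 to 1.19 for F3, -0.21 to 0.37 for Cfd and -0.10 to 0.47 for F8, and between CCl4+Rot and CCl4 from -0.51 to 1.33 for F3, -0.12 to 0.29 for Plau, -0.05 to 0.21 for Thbd, -0.01 to 0.57 for Cfd and -0.04 to 0.53 for F8. C8g with CCl4 (-0.75 to -0.58) and Thbd with CCl4 (0.75 to 1.02) kept their direction. The cause was not tested, except that the probe-set means take in sets called present on no array. Where a signal is at or below detection, as for Plaur, or near the highest signal, as for the fibrinogen chains, a change can be misjudged.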
